A study of Homo sapiens with 68 samples.

Results

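The NRF2 and glutathione genes followed here are 9 genes of the oxidant defence: HMOX1, NQO1, GCLM, GCLC, TXNRD1, SRXN1, SLC7A11, GSR and TXN. They were chosen by name, with earlier results of these data known. Each was represented by its brightest probe set, the set of short oligonucleotides that reads 1 transcript, by mean signal over the arrays used. SRXN1 had no probe set under that name in the platform annotation and was not analysed, so 8 of the 9 genes were measured, of 11882 genes named on the arrays and 22215 probe sets tested. Their expression was set against that of vehicle-treated cells of the same time, across compounds, doses and times.

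The cells were A673, an established Ewing sarcoma cell line that carries the fusion oncoprotein EWS/FLI, so all groups share 1 cell line and 1 fusion. RNA was measured on 68 Affymetrix human expression arrays in plate format. ARA-C (cytarabine), a nucleoside that stops DNA replication once it is built in, was given at 0.17 or 0.34 µM (18 arrays). Doxorubicin, an anthracycline that poisons topoisomerase II, was given at 59.88 or 119.76 nM (17 arrays), and puromycin, which ends protein synthesis early, at 0.09 or 0.18 µM (16 arrays). The lower dose of each compound was its EC50 for A673 viability and the higher dose 2 times that. Cells were harvested after 24 h, 3 days or 5 days, with 3 arrays for each dose and time, except doxorubicin at 119.76 nM on day 5 (2 arrays) and puromycin at 0.18 µM on day 5 (1 array). DMSO was the vehicle, with 6 arrays at 24 h, 5 on day 3 and 6 on day 5. The labels number the arrays as biological replicates but do not say how the cultures were kept apart, and the p-values measure the spread between these arrays.

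NRF2, encoded by NFE2L2, is a transcription factor that is held low by KEAP1, the adaptor of a ubiquitin ligase. Oxidants and electrophiles modify KEAP1, NRF2 then accumulates, pairs with a small MAF protein and binds antioxidant response elements near genes for glutathione synthesis, thioredoxin reduction and quinone and heme breakdown. SLC7A11 and HMOX1 also answer to other regulators, among them ATF4 and, for HMOX1, the repressor BACH1.

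One array, puromycin at 0.09 µM on day 5, replicate 3, was left out of all tests. It correlated with the rest at a median r of 0.603, where every other array had at least 0.887. It gave a signal of 30546 for the hemoglobin gene HBB, at most 123 elsewhere, and 30.9 for the Ewing sarcoma gene STEAP1, at least 2352 elsewhere. Of the other blood cell markers, HBA1, HBA2, HBD, PTPRC, S100A8, S100A9 and NKG7 were also above every other array. NKX2-2, CD99, JAK1, CAV1, EWSR1, NPY1R and BCL11B were below every other array. CD14, CD3D, CD79A, PRKCB and CCK lay within the range of the other arrays, and FLI1, at 3919, above their highest, 3762. On the other 67 arrays the Ewing sarcoma markers NKX2-2, STEAP1, CD99 and NPY1R were at or above 1379, 2352, 6792 and 1839, and CCK alone had its median close to the floor. The authors scaled every array to a common mean over all listed probe sets (1094 to 1103). The mean of the probe sets tested here, without the controls, was 796 to 972 for ARA-C at 0.17 µM, 972 to 1012 and 888 to 909 for doxorubicin at 59.88 and 119.76 nM and 810.1 on the array of puromycin at 0.18 µM, all on day 5, against 1054 to 1076 for day 5 vehicle. Before the log, signals under 10 were set to 10, which touched 19.9% of the values on the median array. Relative to vehicle, the median over all probe sets was shifted by 0.28 on the log2 scale for ARA-C at 0.17 µM on day 3 and -0.28 on day 5, by 0.20 for ARA-C at 0.34 µM at 24 h, by -0.15 and -0.25 for doxorubicin at the lower and higher dose on day 5, and by -0.14 for puromycin at 0.09 µM on day 5. Forcing the arrays to 1 distribution or 1 median moved the median by up to 0.28 and 0.48. The 3′ to 5′ ratio of ACTB on the log2 scale, a sign of RNA quality, lay wholly above vehicle of the same time in 11 of the 18 treated groups. It was furthest above on day 5, with a mean of 3.71 for ARA-C at 0.17 µM, 4.55 for doxorubicin at 119.76 nM and 4.13 on the 1 array of puromycin at 0.18 µM, against 1.29 for vehicle. Its part in the results was not tested, and it is given again for some of the results only. The day 5 values of every member with ARA-C at 0.17 µM and doxorubicin at 119.76 nM carry this limit, also where it is not repeated.

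HMOX1 was the member that rose with ARA-C, in all 6 combinations of dose and time, and it passed the test with neither of the other compounds. GSR passed the test only as a fall, in 10 of 17 conditions spread over all 3 compounds. By its chosen probe set SLC7A11 fell with doxorubicin on days 3 and 5 and rose with puromycin at 0.09 µM on day 5. The 2 subunits of glutamate-cysteine ligase, GCLM and GCLC, rose with puromycin. Over all conditions, 10 of the 48 gene values with ARA-C were higher and 9 lower than in vehicle at an adjusted p under 0.05, beside 9.7% and 13.1% of the values of all probe sets. With doxorubicin 3 and 15 of 48 were, beside 9.6% and 16.6%, and with puromycin 9 and 1 of 40, beside 3.14% and 6.86%. An array averages over all cells of a well, so a change in some cells and a smaller change in every cell cannot be told apart.

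**Figure D1:**
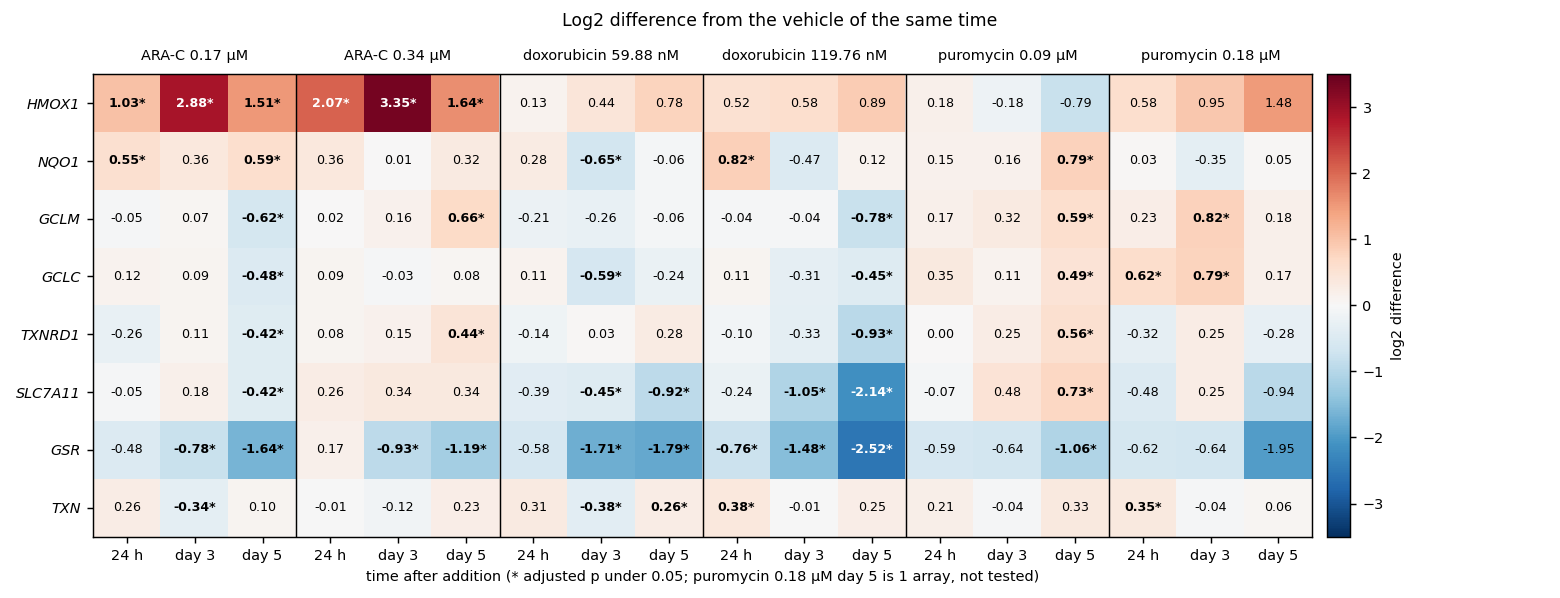
Log2 difference from the vehicle of the same time for each measured gene (rows) by compound, dose and time (columns), with the value in each cell and an asterisk where the adjusted p was under 0.05. HMOX1 is positive and called in the 6 ARA-C columns (1.03 to 3.35), and GSR is lowest with doxorubicin at 119.76 nM on day 5 (-2.52), while the day 5 falls of GCLM, GCLC, TXNRD1 and SLC7A11 with ARA-C at 0.17 µM and of GCLM and GCLC with doxorubicin at 119.76 nM turned positive after quantile normalization.

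Against the arrays as a whole, the counts with ARA-C were as follows. At 0.17 µM and 24 h, HMOX1 and NQO1 rose and none of the 8 genes fell, where 5.42% of all probe sets were higher and 8.97% lower. On day 3, 1 rose (HMOX1) and 2 fell (GSR and TXN), beside 14.5% and 7.92% of all probe sets. On day 5, 2 rose (HMOX1 and NQO1) and 5 fell (GCLM, GCLC, TXNRD1, SLC7A11 and GSR), beside 10.3% and 38%, and the differences of all these but GSR and HMOX1 changed sign with another scaling, probe set or vehicle, as given for each gene. More than 1 in 3 probe sets fell in that condition, and the median of the 8 genes was -0.42, against -0.28 for all probe sets. At 0.34 µM, HMOX1 alone passed at 24 h (6.66% of all probe sets higher and 2.21% lower). On day 3, HMOX1 rose and GSR fell (9.95% and 8.05%). On day 5, HMOX1, GCLM and TXNRD1 rose and GSR fell (11.4% and 13.6%). The median of the 8 genes on day 5 was 0.33 at this dose, against 0.00 for all probe sets.

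With doxorubicin at 59.88 nM no member passed at 24 h (2.52% of all probe sets higher and 2.75% lower). On day 3, none rose and 5 fell, NQO1, GCLC, SLC7A11, GSR and TXN, beside 9.03% higher and 11.1% lower. The median of the 8 genes was then -0.41, against 0.00 for all. On day 5, TXN rose and SLC7A11 and GSR fell (12.1% and 29.2%). At 119.76 nM, NQO1 and TXN rose and GSR fell at 24 h (6.59% and 7.72%). SLC7A11 and GSR fell on day 3 (11.5% and 11.1%). On day 5, none rose and 5 fell, GCLM, GCLC, TXNRD1, SLC7A11 and GSR, of which GCLM and GCLC turned positive after quantile normalization (15.8% and 37.9%). The median of the 8 genes was then -0.62, against -0.25 for all probe sets.

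With puromycin at 0.09 µM no member passed at 24 h (2.09% of all probe sets higher and 8.41% lower) or on day 3 (0.675% and 2.4%). On day 5, NQO1, GCLM, GCLC, TXNRD1 and SLC7A11 rose and GSR fell, beside 5.31% and 12.1% of all probe sets. These 5 rises rested on 2 arrays and none was called without either of them. Against vehicle of the same plate rows the rise of SLC7A11 alone was called (0.70, adjusted p = 0.0228), and by the next brightest probe set NQO1 and SLC7A11 turned negative (-0.05 and -0.12). The 3′ to 5′ ratio of ACTB was 2.10 and 2.45 on these arrays, against 0.529 to 2.08 in vehicle. The median of the 8 genes was 0.52, against -0.14 for all. At 0.18 µM, GCLC and TXN rose at 24 h (3.31% and 4.29%), and GCLM and GCLC on day 3 (4.32% and 7.13%). The single array of 0.18 µM on day 5 is given by its values alone.

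HMOX1 encodes heme oxygenase 1, which opens heme into biliverdin, carbon monoxide and iron. Its signals were 149.8, 162 and 188 in cells treated with ARA-C at 0.17 µM for 24 h and 507, 326 and 241 at 0.34 µM, against 52.8 to 114 (median 86.5) in vehicle. On day 3 they were 346, 347 and 481 at 0.17 µM and 500.3, 467 and 659.6 at 0.34 µM, against 53.6, 90.2, 34.2, 37.8 and 64.6 in vehicle. On day 5 they were 268, 299 and 235 at 0.17 µM and 292, 251 and 337 at 0.34 µM, against 70.4 to 126 (median 94.3) in vehicle. Every ARA-C array lay above every vehicle array of its time, at both doses. The log2 differences at 0.17 µM were 1.03 ± 0.36 at 24 h (SE, 2.04-fold, adjusted p = 0.0475), 2.88 ± 0.38 on day 3 (7.34-fold, adjusted p = 6.7e-08) and 1.51 ± 0.36 on day 5 (2.84-fold, adjusted p = 0.000388). At 0.34 µM they were 2.07 ± 0.36 (4.19-fold, adjusted p = 6.28e-05), 3.35 ± 0.38 (10.2-fold, adjusted p = 6.23e-10) and 1.64 ± 0.36 (3.11-fold, adjusted p = 0.00036). The day 3 difference was thus the largest of the 3 times at each dose. The 3′ to 5′ ratios of ACTB were also higher on the day 3 ARA-C arrays than on the vehicle arrays of that day. They were 1.18 to 1.51 at 0.17 µM and 1.53 to 1.84 at 0.34 µM, against 0.289 to 0.814 in vehicle. At 0.34 µM and 24 h the ratios were 0.561 to 0.803, within the range of vehicle of that time. The part of this ratio in the HMOX1 differences was not tested at any dose or time. Less the median of all probe sets, the HMOX1 differences at 0.17 µM were 2.60 on day 3 and 1.79 on day 5, and 1.87 at 0.34 µM and 24 h.

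**Figure D2:**
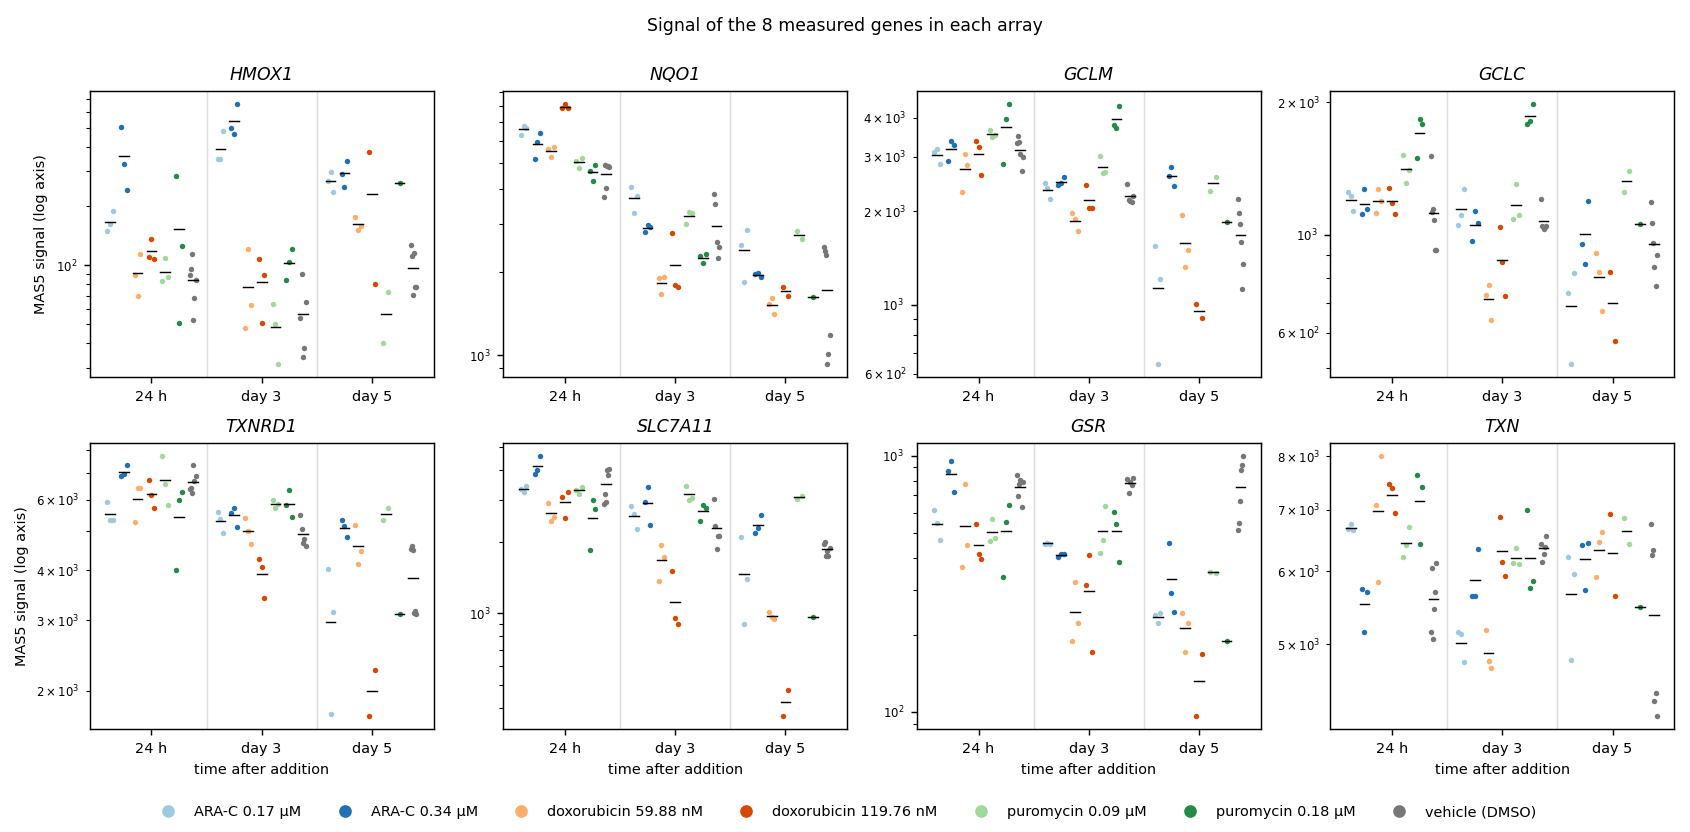
Signal of each gene on every array (log axis) by time, with 1 point per array, a bar at the group mean and the groups in the order ARA-C, doxorubicin, puromycin and vehicle. The HMOX1 panel shows all ARA-C points above the vehicle points of their time (day 3: 346 to 481 and 467 to 659.6, against 34.2 to 90.2), and the SLC7A11 panel the low doxorubicin points on day 5 (369.8 and 477 at 119.76 nM).

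The call at 0.17 µM and 24 h was the weak one, since it was lost without any 1 of 7 arrays (0.90 to 1.12) and with the vehicle arrays of its own part of the plate (1.03 became 0.75, adjusted p = 0.241), whereas the 5 other ARA-C calls of HMOX1 were kept. HMOX1 was a dim gene in vehicle, and 2 of the ARA-C arrays, at 0.17 µM on day 3 (replicate 3, HMOX1 481) and at 0.34 µM and 24 h (replicate 2, HMOX1 326), had only 0.221% and 0.941% of their values under the floor, where the highest array of the same groups had 20.1% and 20.7%. The other arrays of those 2 groups had HMOX1 signals of 346 and 347 and of 507 and 241, also above all vehicle arrays.

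With doxorubicin the HMOX1 differences lay between 0.13 and 0.89 and none passed. The 2 arrays of 119.76 nM on day 5 disagreed, at 378 and 80.4. With puromycin they lay between -0.79 and 0.95, again with no call. On the 1 array of puromycin at 0.18 µM on day 5 HMOX1 stood at 261, above the 70.4 to 126 of vehicle, with 5.80% of that array's values under the floor. Over the 21 groups, the 5 highest group means of HMOX1 were of ARA-C, led by 542 ± 103 (SD, n = 3) at 0.34 µM on day 3. The next group means, 391 ± 77.7 at 0.17 µM on day 3 and 358 ± 136 at 0.34 µM and 24 h, differed by less than their spread. The lowest was 48.2 ± 16.1 for puromycin at 0.09 µM on day 3.

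GSR encodes glutathione reductase, which returns oxidised glutathione to its reduced form. With doxorubicin at 59.88 nM its signals were 190.0, 322 and 221 on day 3, against 811, 713, 788, 767 and 822 in vehicle, and 244, 172 and 223 on day 5, against 514 to 996 (median 774) in vehicle. At 119.76 nM they were 539, 413 and 396 at 24 h, 313, 409 and 171 on day 3 and 96.4 and 168 on day 5, against 629.7 to 842 (median 785) in 24 h vehicle. No doxorubicin array of these 5 conditions reached the lowest vehicle array of its time. The log2 differences were -1.71 ± 0.23 (SE, adjusted p = 5.49e-08) and -1.79 ± 0.22 (adjusted p = 1.89e-09) at 59.88 nM, and -0.76 ± 0.22 (adjusted p = 0.015), -1.48 ± 0.23 (adjusted p = 1.32e-06) and -2.52 ± 0.26 (adjusted p = 2.55e-12) at 119.76 nM. The last is a 5.74-fold lower signal and the largest difference of any member on either side after HMOX1. Less the median of all probe sets, the day 5 values were -1.64 and -2.27. The mean 3′ to 5′ ratios of ACTB were 1.13 and 2.48 at 59.88 nM on days 3 and 5. At 119.76 nM they were 1.78 at 24 h, 0.905 on day 3 and 4.55 on day 5. Vehicle had 0.817, 0.533 and 1.29 at the 3 times. The part of this ratio in the falls of GSR was not tested.

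ARA-C lowered GSR on days 3 and 5 but gave no call at 24 h. The signals at 0.17 µM were 454, 459 and 453 on day 3 and 239.8, 222 and 244 on day 5, and at 0.34 µM 404, 412 and 413 and 456, 293 and 245. None overlapped with the vehicle arrays given above for those days. The log2 differences were -0.78 ± 0.23 (SE, adjusted p = 0.0129) and -1.64 ± 0.22 (adjusted p = 1.16e-08) at 0.17 µM and -0.93 ± 0.23 (adjusted p = 0.00239) and -1.19 ± 0.22 (adjusted p = 3.13e-05) at 0.34 µM. With puromycin at 0.09 µM on day 5 the signals were 352 and 349 and the difference -1.06 ± 0.26 (adjusted p = 0.00247), and the 1 array at 0.18 µM stood at 189. The mean ACTB ratios were 1.31 and 3.71 for ARA-C at 0.17 µM on days 3 and 5, and 1.70 and 1.57 at 0.34 µM. For puromycin at 0.09 µM on day 5 the mean was 2.28. At 24 h GSR averaged 543 with ARA-C at 0.17 µM, at a mean ratio of 1.79, and 851 at 0.34 µM, at 0.657. The part of the ratio in these values was not tested either. All 10 falls of GSR kept their direction under every scaling tried. Leaving out 1 array ended the call for ARA-C at 0.17 µM on day 3 (replicate 3, -0.77 without it), doxorubicin at 119.76 nM and 24 h (replicate 2 or 3, -0.70 and -0.67) and puromycin at 0.09 µM on day 5 (replicate 2, -1.05).

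Day 5 vehicle cells held 2 levels of GSR by place on the array plate, 879 to 996 in rows G-H and 514 to 668 in rows A-F. The doxorubicin arrays and those of ARA-C at 0.17 µM lay in rows A-F, and those of ARA-C at 0.34 µM in rows G-H. Against vehicle of the same rows, the fall with puromycin on day 5 was no longer called (-0.71, adjusted p = 0.147), nor that with ARA-C at 0.17 µM on day 3 (-0.74, adjusted p = 0.0749), and the other 8 were.

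SLC7A11 encodes xCT, the cystine and glutamate exchanger that brings in the cysteine for glutathione. Its signals with doxorubicin at 59.88 nM were 1361, 1938 and 1718 on day 3, against 3033, 2327, 1861, 2119 and 2104 in vehicle. On day 5 they were 1013, 967 and 949 at 59.88 nM and 369.8 and 477 at 119.76 nM, against 1731 to 1984 (median 1853) in vehicle. At 119.76 nM on day 3 they were 1504, 956 and 896. Only 1 doxorubicin array of these 4 groups, at 59.88 nM on day 3, reached into the vehicle range. The log2 differences were -0.45 ± 0.17 (SE, adjusted p = 0.0482) and -0.92 ± 0.16 (adjusted p = 3.83e-06) at 59.88 nM and -1.05 ± 0.17 (adjusted p = 1.57e-06) and -2.14 ± 0.19 (adjusted p = 1.03e-14) at 119.76 nM, the last 4.41-fold lower and -1.89 less the median of all probe sets. The first of these calls was lost without any 1 of 6 arrays (-0.56 to -0.31), and the other 3 were kept. The next brightest probe set, 217678_at, fell in the same 4 conditions (-0.91, -1.35, -1.40 and -3.01). It also fell at 24 h, with ARA-C at 0.17 µM (-1.25), doxorubicin at 119.76 nM (-1.26) and both puromycin doses (-1.05 and -1.06), where the chosen SLC7A11 probe set gave -0.05, -0.24, -0.07 and -0.48 and no call. The mean 3′ to 5′ ratios of ACTB in these groups were 1.79, 1.78, 1.79 and 1.79, against 0.817 in 24 h vehicle. In the other 24 h groups, 217678_at gave 0.57 with ARA-C at 0.34 µM (ratio 0.657) and -0.61 with doxorubicin at 59.88 nM (ratio 1.25), neither called. The part of this ratio in the SLC7A11 values was not tested. The dimmest SLC7A11 probe set, 207528_s_at, gave -0.32 and 0.60 with doxorubicin at 59.88 nM on days 3 and 5, neither called. At 119.76 nM its mean signal was 99.2 on day 3, against 234 in vehicle, and 44.6 on day 5, against 88.1.

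Puromycin went the other way on day 5. At 0.09 µM the 2 arrays read 3026 and 3103, above every vehicle array, a log2 difference of 0.73 ± 0.19 (SE, 1.66-fold, adjusted p = 0.00386) and 0.87 less the median of all probe sets. The call did not hold without either array (highest adjusted p 0.0726), and the probe set 217678_at gave -0.12 there. At 0.18 µM on day 5 the 1 array read 965. With ARA-C at 0.17 µM on day 5 SLC7A11 read 2099, 896 and 1398, a difference of -0.42 ± 0.16 (adjusted p = 0.0255) that rested on replicate 2 (-0.11 without it) and became 0.38 after quantile normalization. In that condition 217678_at gave -2.02 (adjusted p = 1.29e-08) and 207528_s_at 0.56, not called. With ARA-C at 0.34 µM on day 5 they gave 0.41, not called, and 1.30 (adjusted p = 0.00209).

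GCLC is the catalytic and GCLM the modifier subunit of glutamate-cysteine ligase, the rate-limiting enzyme of glutathione synthesis. With puromycin at 0.18 µM on day 3, GCLM read 3780.0, 3712 and 4359.7, against 2453, 2177, 2159, 2146 and 2240.3 in vehicle, and GCLC read 1783, 1817 and 1979, against 1206, 1047, 1034, 1045 and 1049.7. Both were above every vehicle array, with log2 differences of 0.82 ± 0.16 for GCLM (SE, 1.77-fold, adjusted p = 0.000156) and 0.79 ± 0.14 for GCLC (1.73-fold, adjusted p = 4.12e-05). GCLC was already higher at 24 h, at 1494, 1828 and 1785, against 922 to 1511 (median 1105) in vehicle (0.62 ± 0.14, adjusted p = 0.00198), and 1 of those arrays overlapped with vehicle. The dimmer second GCLC probe set, 202922_at, gave 0.63 on day 3 (adjusted p = 0.0211) but 0.30 at 24 h (adjusted p = 0.423) and 0.28 at 0.09 µM on day 5, neither called. At 0.09 µM on day 5 the differences were 0.59 ± 0.18 for GCLM (adjusted p = 0.0167) and 0.49 ± 0.16 for GCLC (adjusted p = 0.0255), from signals of 2331 and 2583 and of 1252 and 1396. These last 2 calls were lost against vehicle of the same plate rows (0.30 and 0.31) and without either puromycin array (GCLM 0.51 to 0.66, GCLC 0.41 to 0.57). GCLM was also lost without vehicle replicate 5 (0.48), and GCLC without vehicle replicate 4 or 5 (0.46 and 0.43).

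On day 5 the subunits were low with ARA-C at 0.17 µM, where GCLM read 1548, 645 and 1209 and GCLC 737, 510.1 and 819, against 1126 to 2196 (median 1706) and 765 to 1186 (median 928) in vehicle. The differences were -0.62 ± 0.16 (SE, adjusted p = 0.00066) and -0.48 ± 0.14 (adjusted p = 0.00274), and both turned positive after quantile normalization (0.24 and 0.44). Replicate 2 was the low array, and without it they were -0.26 and -0.28 and not called. Less the median of all probe sets they were -0.34 and -0.20. Doxorubicin at 119.76 nM on day 5 gave -0.78 ± 0.18 for GCLM (1003 and 903, adjusted p = 0.000201) and -0.45 ± 0.16 for GCLC (826 and 574, adjusted p = 0.0139), and these also turned positive after quantile normalization (0.23 and 0.62). The GCLC call there was lost without replicate 3 (-0.19). GCLC fell as well with doxorubicin at 59.88 nM on day 3 (-0.59 ± 0.14, adjusted p = 0.0013), with 732, 769.9 and 641 below every vehicle array. GCLM rose with ARA-C at 0.34 µM on day 5, at 2595, 2782 and 2411, above every vehicle array (0.66 ± 0.16, adjusted p = 0.000724).

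The antioxidant response element lies in the promoters of several of these genes, and the stretches that hold its core are shown because NRF2 binds this element. RefSeq start sites (GRCh38.p14) gave 7 windows of 300 bases, 250 before and 50 after the start, for 6 members: GCLM, GCLC, TXN, TXNRD1 (2 starts), NQO1 and SRXN1. The core searched on both strands was TGACNNNGC, and 3 of the 7 windows held it, against 13.3% of all 35116 windows. Each is printed with 10 bases on either side, 5′ to 3′ along the gene's strand, with the core in capitals, read on the opposite strand in GCLM and in the second TXNRD1 window. The core began 34 bases before the start of GCLM, at chr1:93909446-93909474 on the minus strand, and 99 and 102 bases before the 2 starts of TXNRD1, at chr12:104215670-104215698 and chr12:104286920-104286948 on the plus strand.
GCLM: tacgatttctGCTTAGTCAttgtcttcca
TXNRD1, upstream start: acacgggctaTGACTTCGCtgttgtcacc
TXNRD1, downstream start: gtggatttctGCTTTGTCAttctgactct
The upstream TXNRD1 window held a second core. The ATF4 type element TGATGNAAN was in none of the 7 windows and in 3.61% of all. A match is a run of letters and not a measured site, and the 2 genes that share the core, GCLM and TXNRD1, passed together in 4 conditions. They rose with ARA-C at 0.34 µM and puromycin at 0.09 µM on day 5, and they fell with ARA-C at 0.17 µM, where both turned positive after quantile normalization, and with doxorubicin at 119.76 nM, where GCLM did. GCLC, whose window held no core, also passed together with GCLM. It did so on day 5 with ARA-C at 0.17 µM, doxorubicin at 119.76 nM and puromycin at 0.09 µM, and on day 3 with puromycin at 0.18 µM. How often other pairs of genes passed together was not tested.

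TXNRD1, cytosolic thioredoxin reductase, and its substrate TXN, thioredoxin, reduce protein disulfides. TXNRD1 read 1728 and 2252 with doxorubicin at 119.76 nM on day 5, below the 3106 to 4599 (median 3829) of vehicle, a log2 difference of -0.93 ± 0.16 (SE, adjusted p = 2.45e-06). It read 5334, 5144 and 4853 with ARA-C at 0.34 µM (0.44 ± 0.14, adjusted p = 0.0164) and 5352 and 5726 with puromycin at 0.09 µM (0.56 ± 0.16, adjusted p = 0.013), both above every day 5 vehicle array. These 2 calls were lost without ARA-C replicate 1 or 2 (0.41 and 0.43) and without puromycin replicate 1 or 2 (0.60 and 0.51). The puromycin call was also lost against vehicle of the same plate rows (0.29), where TXNRD1 read 4498 to 4599 in rows A-F and 3106 to 3160 in rows G-H. With ARA-C at 0.17 µM TXNRD1 read 4025, 1751 and 3135, a difference of -0.42 ± 0.14 (adjusted p = 0.0105) that rested on replicate 2 (-0.08 without it) and became 0.18 after quantile normalization. The TXNRD1 response to ARA-C thus had a different sign at the 2 doses on day 5, a difference between doses that was not tested for that day.

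By its chosen probe set TXN had the smallest differences of the 8 genes, with a range of -0.38 to 0.38 over the 17 tested conditions. It rose at 24 h with doxorubicin at 119.76 nM, to 7469, 7389 and 6935, against 5062 to 6128 (median 5579.9) in vehicle (0.38 ± 0.11, adjusted p = 0.0104), and with puromycin at 0.18 µM, to 7636, 6418 and 7408 (0.35 ± 0.11, adjusted p = 0.0291). Neither overlapped with vehicle. It fell on day 3 with ARA-C at 0.17 µM, to 5148, 5125 and 4776, against 6428, 6140.0, 6268, 6379 and 6559 in vehicle (-0.34 ± 0.11, adjusted p = 0.0219), and with doxorubicin at 59.88 nM, to 5185, 4792 and 4709 (-0.38 ± 0.11, adjusted p = 0.00947). Its day 5 vehicle levels were 6256 to 6752 in rows A-F and 4176 to 4426 in rows G-H, and the rise with doxorubicin at 59.88 nM on day 5 (0.26 ± 0.11, adjusted p = 0.0438) became -0.03 against vehicle of rows A-F. Leaving out 1 array ended the call for doxorubicin at 119.76 nM and 24 h (replicate 2, 0.37), ARA-C on day 3 (replicate 3, -0.31) and doxorubicin on day 3 (replicate 3, -0.35), and any of 5 arrays did so for puromycin at 24 h (0.31 to 0.35) and for doxorubicin on day 5 (0.20 to 0.25). The dimmer second TXN probe set, 216609_at, disagreed in size and often in direction. It gave 0.11 with doxorubicin at 59.88 nM on day 3 and -0.05 at 119.76 nM and 24 h, neither called. It was called at 1.37 and 1.21 with doxorubicin at 59.88 nM at 24 h and on day 5, at 1.23 and 1.42 with puromycin at 0.09 µM at 24 h and on day 5 and at 1.30 at 0.18 µM and 24 h. It fell on day 3 with ARA-C at 0.17 µM (-0.86) and doxorubicin at 119.76 nM (-0.82).

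NQO1 encodes NAD(P)H quinone dehydrogenase 1, a reductase of quinones and a usual marker of NRF2 activity. It has 2 bright probe sets with almost the same mean signal, 3509 for 201468_s_at, the one chosen, and 3506 for 210519_s_at, and they disagreed on the direction of several changes. With ARA-C at 0.17 µM on day 5 the chosen probe set read 2518, 1848 and 2847, against 929 to 2474 (median 1752) in vehicle, a difference of 0.59 ± 0.19 (SE, adjusted p = 0.00683), and 210519_s_at gave -0.87 (adjusted p = 3.67e-08). With doxorubicin on day 5 the chosen probe set gave -0.06 and 0.12, not called, and 210519_s_at gave -1.05 and -1.68 (adjusted p = 5.15e-10 and 7.49e-15). The third and dimmer probe set, 201467_s_at, fell with 210519_s_at in these 3 conditions (-0.76, -1.31 and -1.41).

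The spread of the chosen probe set in day 5 vehicle followed the plate. It read 2318 to 2474 in rows A-F and 929 to 1187 in rows G-H, whereas 210519_s_at read 2171 to 2418 and 2042 to 2317. Against vehicle of the same rows, the rise with ARA-C at 0.17 µM on day 5 became -0.01 and that with puromycin at 0.09 µM on day 5 (0.79 ± 0.22, adjusted p = 0.00657) became 0.19, and 210519_s_at gave -0.05 for the puromycin condition. The first call was also lost without ARA-C replicate 3 (0.45) and the second without puromycin replicate 1 or 2 (0.75 and 0.84). In the other direction, the NQO1 differences with doxorubicin on day 5 became -0.66 and -0.49 against the same rows, both then called. NQO1 rose with doxorubicin at 119.76 nM at 24 h, to 7874, 8150.3 and 7922, against 3762 to 4910.3 (median 4838) in vehicle (0.82 ± 0.19, adjusted p = 0.00123, and 0.92 against the same rows). It fell with doxorubicin at 59.88 nM on day 3, to 1905, 1671 and 1924, against 3859, 3536, 2572, 2244 and 2479 in vehicle (-0.65 ± 0.19, adjusted p = 0.0101, and -1.01), a call lost without replicate 2 (-0.59). By 210519_s_at these 2 differences were 0.18 and -0.31, neither called. With ARA-C at 24 h the chosen probe set rose at 0.17 µM (0.55, adjusted p = 0.0374) and 210519_s_at at 0.34 µM (0.57, adjusted p = 0.00156), while 210519_s_at gave -0.24 at 0.17 µM. The first of these was lost without any 1 of 5 arrays (0.50 to 0.58).

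**Figure D3:**
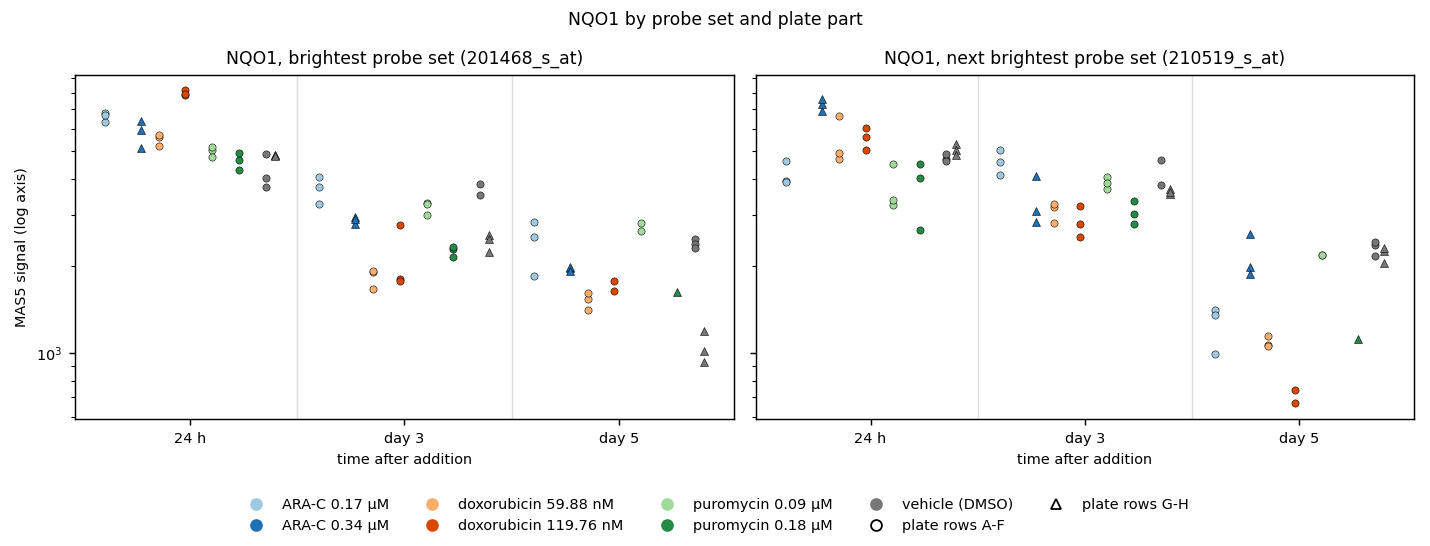
Signal of the 2 brightest NQO1 probe sets on every array (log axis) by time and group, with circles for plate rows A-F and triangles for rows G-H. On day 5 the vehicle arrays split by plate rows in 201468_s_at (2318 to 2474 in A-F, 929 to 1187 in G-H) and not in 210519_s_at, and the doxorubicin arrays, all in rows A-F, are below the vehicle arrays of those rows in both probe sets (1405 to 1611 and 1642 to 1774 in 201468_s_at). The direction of the NQO1 changes with ARA-C at 0.17 µM and puromycin depended on the probe set.

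Some members also changed with time in vehicle alone, at both intervals: NQO1, GCLM, TXNRD1 and SLC7A11 fell between 24 h and day 3 (4 of 8, beside 3.16% of all probe sets in either direction) and between 24 h and day 5 (4 of 8, beside 23.9%). On day 5 minus 24 h the log2 differences were -1.52 ± 0.15 for NQO1 (SE, adjusted p = 1.18e-11), -0.94 ± 0.13 for GCLM (adjusted p = 4.2e-08), -0.82 ± 0.12 for TXNRD1 (adjusted p = 1.39e-07) and -0.89 ± 0.13 for SLC7A11 (adjusted p = 2.99e-07). No day 5 vehicle array reached the 24 h range in these 4 genes. SLC7A11, for example, read 1731 to 1984 on day 5 and 2889 to 4026 at 24 h. Within plate rows A-F the day 5 differences were -0.82, -0.76, -0.48 and -0.67 and within rows G-H -2.22, -1.12, -1.15 and -1.12, all called. On day 3 minus 24 h they were -0.65, -0.49, -0.43 and -0.61, and none was called within rows A-F, where 2 day 3 arrays lay. The day 3 calls of NQO1, GCLM and TXNRD1 were each lost without 2 to 6 single arrays, day 3 vehicle replicates 5 and 6 in all 3 genes (NQO1 -0.57 and -0.60, GCLM -0.48 and -0.49, TXNRD1 -0.42 and -0.41). HMOX1, GCLC, GSR and TXN gave day 5 minus 24 h differences of 0.20, -0.23, -0.04 and -0.08 without a call. The levels that treated cells were set against on day 5 were thus lower in 4 genes than those at 24 h.

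**Figure D4:**
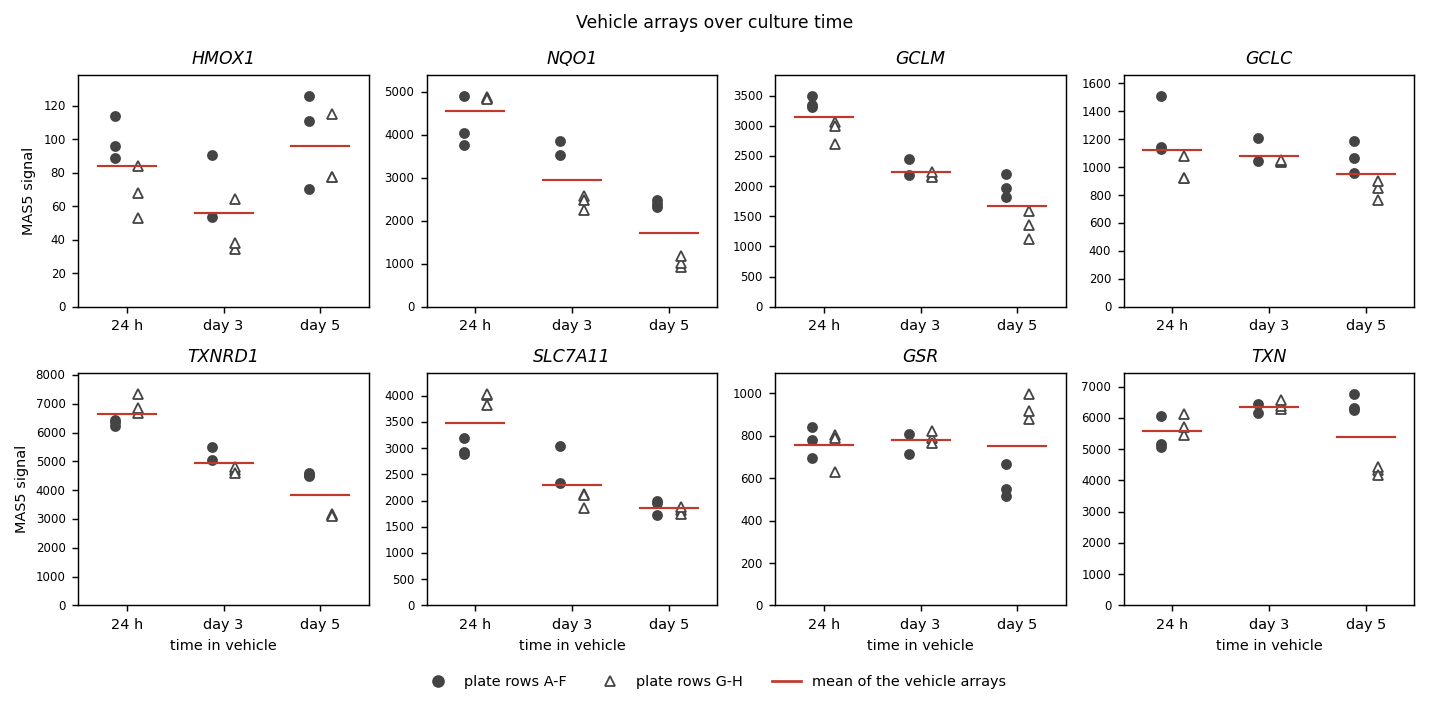
Signal of the 8 genes in vehicle arrays by time (linear axis that starts at 0), with filled circles for plate rows A-F, open triangles for rows G-H and a line at the mean of each time. NQO1, GCLM, TXNRD1 and SLC7A11 are lower on day 5 than at 24 h in both parts of the plate, and on day 5 NQO1, GCLM, GCLC, TXNRD1, GSR and TXN split by plate rows without overlap, with GSR the one that was higher in rows G-H. The share of all probe sets that split in this way was not counted, so the splits cannot be read as a result about these genes.

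The compounds were set against each other at their EC50, in 3 pairs at 24 h and over days 3 and 5 together (the mean of the differences of both days). The vehicle drops out of these comparisons. At 24 h no member passed in any pair, where 5.5% of all probe sets differed between ARA-C and doxorubicin, 6.63% between ARA-C and puromycin and 3.16% between doxorubicin and puromycin. The HMOX1 difference of ARA-C minus doxorubicin at 24 h was 0.90 with a 95% confidence interval of 0.06 to 1.74, so a difference of over 1 log2 unit was not excluded at this number of arrays. Over days 3 and 5, 5 members differed between ARA-C and doxorubicin (25.2% of all probe sets), 6 between ARA-C and puromycin (40.5%) and 6 between doxorubicin and puromycin (29.8%).

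HMOX1 was highest with ARA-C, by 1.58 ± 0.30 over doxorubicin (SE, adjusted p = 4.68e-05) and 2.68 ± 0.31 over puromycin (adjusted p = 6.72e-10), and higher with doxorubicin than puromycin by 1.09 ± 0.31 (adjusted p = 0.00508). The doxorubicin minus puromycin value was 0.88 and not called without puromycin replicate 1 of day 5. SLC7A11 was lowest with doxorubicin, -1.29 relative to puromycin (adjusted p = 5.1e-11), and ARA-C lay between, 0.56 relative to doxorubicin (adjusted p = 0.000949) and -0.73 relative to puromycin (adjusted p = 2.58e-05). The probe set 217678_at gave -1.24, 0.01 and -1.22 for these 3 values, so the difference between ARA-C and doxorubicin was not called by it (adjusted p = 0.97), nor by the dimmest, 207528_s_at (0.29, adjusted p = 0.454). GCLM and GCLC were lower with ARA-C (-0.73 and -0.50) and with doxorubicin (-0.61 and -0.72) than with puromycin. Between ARA-C and doxorubicin they did not pass, with intervals of -0.37 to 0.14 for GCLM and -0.01 to 0.45 for GCLC. GSR was lower with doxorubicin than with ARA-C (ARA-C minus doxorubicin 0.55, adjusted p = 0.0228) and puromycin (-0.90, adjusted p = 0.000191). The GSR difference between ARA-C and doxorubicin was not called without doxorubicin replicate 1 of day 3 or 2 of day 5 (0.46 and 0.47). TXNRD1 was lower with ARA-C than with doxorubicin (-0.31, lost without any 1 of 6 arrays, -0.14 without ARA-C replicate 2 of day 5) and puromycin (-0.56), TXN was lower with ARA-C than with puromycin (-0.27, 0.00 after quantile normalization, not called without ARA-C replicate 2 or puromycin replicate 1 of day 5, -0.22 and -0.25), and NQO1 was lower with doxorubicin than with ARA-C (0.83) and puromycin (-0.83).

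**Figure D5:**
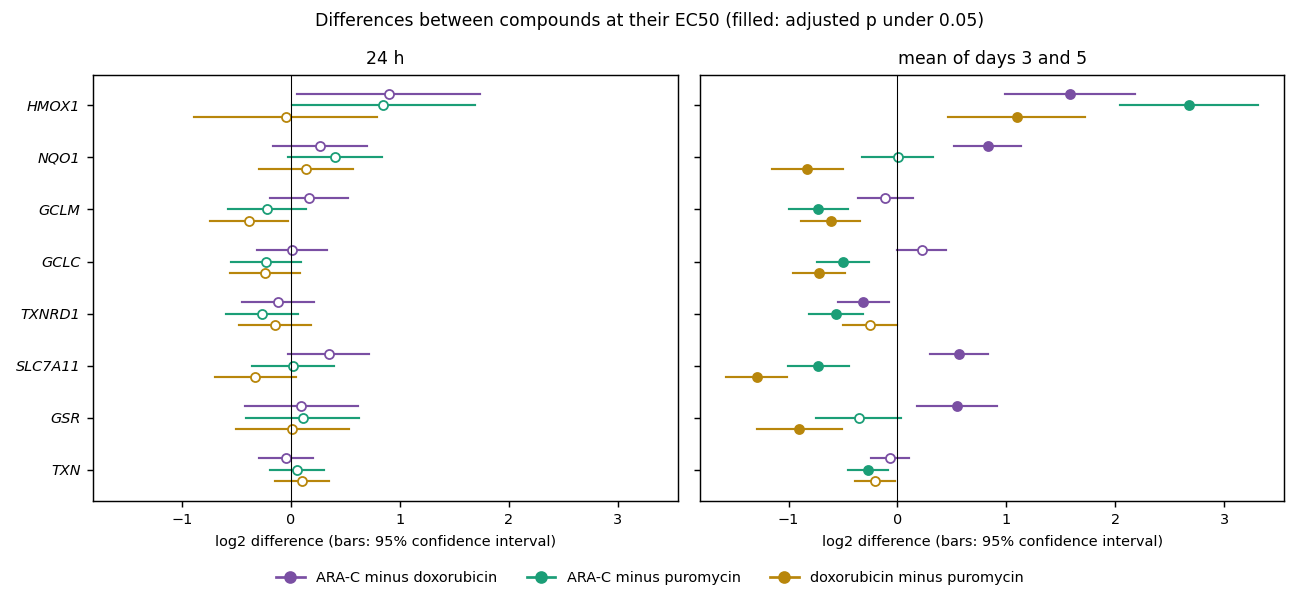
Log2 difference between compounds at their EC50 for each gene, at 24 h (left) and as the mean of days 3 and 5 (right), with bars for the 95% confidence interval and filled points where the adjusted p was under 0.05. HMOX1 lies right of 0 in all 3 pairs over days 3 and 5 (1.09 to 2.68), SLC7A11 is lowest for doxorubicin minus puromycin (-1.29), no point is filled at 24 h, and TXN for ARA-C minus puromycin was 0.00 after quantile normalization.

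Doubling the dose gave few calls. Over 24 h and day 3 together, no member differed between 0.34 and 0.17 µM ARA-C (3.76% of all probe sets) or between 119.76 and 59.88 nM doxorubicin (2.93%), and 1, GCLC, was higher at 0.18 than at 0.09 µM puromycin (0.275% of all probe sets, 0.47 ± 0.11, adjusted p = 0.0444). That call was lost without any 1 of 11 of the 12 puromycin arrays. The HMOX1 difference between the ARA-C doses was 0.76 with an interval of 0.16 to 1.35, and SLC7A11 between the doxorubicin doses -0.22 with -0.49 to 0.04. All ARA-C arrays of 0.17 µM lay in plate rows A-F and all of 0.34 µM in rows G-H, while vehicle lay in both. With plate part as a block, fitted through the other groups, the HMOX1 difference between the ARA-C doses was 1.21 (adjusted p = 0.129).

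Other genes of the pathway were taken as 6 lists, named by function, with earlier results of these data known. On day 5 their counts depended on how the arrays were scaled, and the counts after quantile normalization are given with them. The 18 genes named kept their direction and their call under both other scalings. Of the 9 measured regulators of NRF2, 2 were higher and 6 lower with doxorubicin at 119.76 nM on day 5, with a median of -0.72, against -0.25 for all probe sets (4 higher and 4 lower after quantile normalization). Of all probe sets 15.8% were higher and 37.9% lower there. NFE2L2 itself fell there (1082 in treated and 3612 in vehicle cells, a log2 difference of -1.77, adjusted p = 1.00e-13), as did BACH1, which represses HMOX1 (450.3 in treated and 1455 in vehicle cells, a log2 difference of -1.68). MAFF, a small MAF partner, rose (5394 in treated and 763 in vehicle cells, a log2 difference of 2.93). With ARA-C at 0.34 µM, 2 regulators rose and none fell at each time (4, 3 and 3 rose after quantile normalization, and 1, 2 and 2 with the arrays at a common median). Of all probe sets, 6.66%, 9.95% and 11.4% were higher at this dose at 24 h, day 3 and day 5. The shares lower were 2.21%, 8.05% and 13.6%.

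Of the 21 other NRF2 targets measured, 3 rose and 15 fell with doxorubicin at 119.76 nM on day 5, beside 15.8% and 37.9% of all probe sets (median -1.56, and 4 and 12 after quantile normalization). The largest changes were in PIR, an iron-binding nuclear protein (204 in treated and 3087 in vehicle cells, a log2 difference of -3.93), in the aldo-keto reductase AKR1C2 (22.9 in treated and 868 in vehicle cells, a log2 difference of -5.26), whose near-identical relatives may share its probes, and at 59.88 nM in AKR1B10, another aldo-keto reductase (153 in treated and 13.6 in vehicle cells, a log2 difference of 3.37). AKR1B10 in vehicle was close to the floor. With ARA-C at 0.17 µM on day 5, 2 of these targets rose and 14 fell, beside 10.3% and 38% of all probe sets (6 and 9 after quantile normalization). With puromycin at 0.09 µM on day 5, where 5 members rose, none rose and 5 fell, beside 5.31% and 12.1% of all probe sets (0 and 6 after quantile normalization, but 2 and 1 with the arrays at a common median).

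Of 27 genes that use or turn over glutathione, 2 rose and 20 fell with doxorubicin at 119.76 nM on day 5, beside 15.8% and 37.9% of all probe sets (median -1.29, and 6 and 12 after quantile normalization). Among those that fell were HAGH, a hydrolase of the glyoxalase route (60.7 in treated and 846 in vehicle cells, a log2 difference of -3.78), and the glutathione transferase GSTA4 (453 in treated and 3782 in vehicle cells, a log2 difference of -3.07). GSTZ1, another transferase, was lowest with ARA-C at 0.17 µM on day 5 (51.9 in treated and 416 in vehicle cells, a log2 difference of -2.93). Puromycin at 0.09 µM on day 5 came with 15 of the 27 lower and 1 higher, beside 12.1% and 5.31% of all probe sets (14 and 1 after quantile normalization, but 6 and 3 with the arrays at a common median). Of 16 thioredoxin, peroxiredoxin and superoxide genes, 1 rose and 8 fell with doxorubicin at 119.76 nM on day 5, beside 15.8% and 37.9% of all probe sets (6 and 8 after quantile normalization). Catalase (CAT) was among those that fell (525 in treated and 2659.9 in vehicle cells, a log2 difference of -2.37). TXNIP, the inhibitor of thioredoxin, fell with ARA-C at 0.17 µM on day 5 (530.1 in treated and 4495 in vehicle cells, a log2 difference of -2.61), and the selenoprotein SELENOP rose with ARA-C at 0.34 µM on day 3 (562 in treated and 63.4 in vehicle cells, a log2 difference of 3.22).

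Of 11 heme and iron genes, 3 rose and 8 fell with doxorubicin at 119.76 nM on day 5, beside 15.8% and 37.9% of all probe sets (2 and 3 after quantile normalization). FECH, which inserts iron into protoporphyrin to make heme, fell (225 in treated and 1998 in vehicle cells, a log2 difference of -3.13), and TFRC, the transferrin receptor, rose (21042 in treated and 7807 in vehicle cells, a log2 difference of 1.67). BLVRB, a biliverdin reductase, fell with ARA-C at 0.17 µM on day 5 (206 in treated and 1106 in vehicle cells, a log2 difference of -2.38). Of 23 genes of the ATF4 amino acid response, which shares SLC7A11 with NRF2, 14 rose and none fell with ARA-C at 0.34 µM and 24 h, beside 6.66% and 2.21% of all probe sets (median 0.58, against 0.20 for all probe sets). The counts were 17 and 0 after quantile normalization and 10 and 0 with the arrays at a common median (median 0.23, against -0.15 for all probe sets). With doxorubicin at 119.76 nM on day 5, 2 rose and 16 fell (5 and 10 after quantile normalization), among them PSAT1 of serine synthesis (108 in treated and 3566 in vehicle cells, a log2 difference of -5.04), CBS of cysteine synthesis (218 in treated and 3839 in vehicle cells, a log2 difference of -4.14) and ASNS, asparagine synthetase (686 in treated and 11282 in vehicle cells, a log2 difference of -3.99). Doxorubicin at 119.76 nM on day 5 was also the condition with the highest mean 3′ to 5′ ratio of ACTB and 37.9% of all probe sets lower, whose part in these counts was not tested.

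Over the 21 group means, which share the array scaling and the plate, TXNRD1 and SLC7A11 had a Pearson r of 0.91, TXNRD1 and GCLM 0.89, and GCLM and GCLC 0.88. HMOX1 followed none of the others, with r between -0.30 and -0.02. The genes outside the list whose pattern was most like that of GSR, the member with the most calls, were MPHOSPH9 (r = 0.95), PRORP (0.95) and HAUS4 (0.94). HMOX1, SLC7A11 and GCLC tied for the next place with 6 calls each. The most like HMOX1 were PARM1 (0.91), TG (0.84) and DPF3 (0.83), the most like SLC7A11 were SGMS1 (0.96), GMNN (0.95) and PCNA (0.95), and the most like GCLC were ZNF45 (0.92), CDC5L (0.92) and PSPC1 (0.91).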

How the data were processed

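RNA of A673 cells was measured on 68 plate-format arrays. The deposited values were intensities, the MAS5 signals that the authors computed per probe set and scaled to a common mean per array (the MAS5 version is not given in the sources used here), and no column of sample values was left unused. Here 715 control probe sets were removed, signals under 10 were set to 10 and log2 was taken, which leaves 22215 probe sets, 19230 with 1 gene symbol, 125 with several and 2860 with none. On these log2 values limma 3.58.1 (R 4.3.3) fitted 1 mean for each of 21 groups over 67 arrays (lmFit, eBayes with an intensity trend), with Benjamini-Hochberg adjustment over the probe sets of each comparison and calls at an adjusted p under 0.05. The fit was tested on simulated data. Each gene was read by its brightest probe set. The groups with 1 array got no test. All members were named in every comparison, of each other list the 3 genes with the largest called difference, and for the members with most calls the 3 genes of most alike group means. The members and lists were chosen with earlier results of these data known. The number of arrays limits the precision. Alternatives were 2 scalings, other floors, a cap, blocks for plate part, plate columns and replicate number, vehicle of the same plate rows, the next probe set and leaving out each array, of which the block for plate columns, both plate blocks together and the vehicle comparisons within plate rows were chosen after seeing the data.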

Additional observations from a re-analysis of the deposited data

Results flagged for a closer look

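Of the 24 sets of vehicle arrays checked for an array far from the rest (8 genes at 3 times), 1 had one: GCLC in day 3 vehicle, where the highest array read 1206, apart from the others by 0.9 of the range. Chance gives such an array in about 1 of 20 groups. The difference from vehicle at the EC50 was also compared between times, by an interaction term in the same limma fit. It passed in 11 of 48 contrasts of day 3 or day 5 with 24 h, beside 12.3% of the values of all probe sets in the same contrasts. With ARA-C, the HMOX1 difference was larger by 1.85 on day 3, that of TXN was lower on day 3 (-0.60), and those of GCLM, GCLC and GSR were lower on day 5 (-0.57, -0.60 and -1.15). With doxorubicin, those of NQO1, GCLC, GSR and TXN were lower on day 3 (-0.93, -0.71, -1.13 and -0.69), and that of GSR on day 5 (-1.22). With puromycin, that of SLC7A11 was higher on day 5 by 0.80. The array left out of the tests, puromycin at 0.09 µM on day 5, replicate 3, read above all day 5 vehicle arrays in 4 genes: HMOX1 350.1, against 70.4 to 126 in vehicle, GCLM 2781, against 1126 to 2196, GCLC 11858, against 765 to 1186, and TXNRD1 6780, against 3106 to 4599. It read below all of them in NQO1 (139.8, against 929 to 2474), SLC7A11 (626, against 1731 to 1984) and GSR (163, against 514 to 996). TXN, at 4563, lay within their range. The share of all probe sets outside the vehicle range on this array was not counted, so these values are no result about the members.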

How the results depend on the processing

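Of 73 single called values, 56 kept their call with the arrays at a common median, 57 after quantile normalization, 60 with plate part as a block, 52 with both plate blocks and 72 with a floor of 32, and 32 lost it without some 1 array while none changed sign. Replicate numbers did not pair the arrays (r over 0.1 in 10 of 126 pairs). In the counts that follow, those higher or lower with a compound are calls over genes and tested conditions. Those between compounds, between doses or in vehicle over time are members. With a replicate block the calls higher with ARA-C were 6 in place of 10, with doxorubicin 1 in place of 3 and with puromycin 4 in place of 9. The calls lower with puromycin were 2 in place of 1. After quantile normalization 4 were lower with ARA-C, 11 higher with doxorubicin and 2 lower with puromycin, with 1 differing between ARA-C and doxorubicin at 24 h, 3 between ARA-C and puromycin on days 3 and 5 and 0 between puromycin doses. At a common median the calls lower with ARA-C were 5 and those higher with doxorubicin 6. The members differing between puromycin doses were 0 and those changing in vehicle by day 3 were 1. With plate part as a block 1 was higher with doxorubicin, and 4 higher and 2 lower with puromycin. With plate columns as a block 0 were lower with puromycin, 2 differed between ARA-C and doxorubicin on days 3 and 5 and 1 changed in vehicle by day 3, and with both blocks 1 was higher with doxorubicin, 2 higher with puromycin, 3 between ARA-C and doxorubicin and 2 in vehicle. Above the 40th percentile of signal 5 were higher with doxorubicin and 3 lower with puromycin. With the left-out array kept these were 0 higher and 9 lower with doxorubicin, 4 higher with puromycin, 1 between ARA-C and doxorubicin on days 3 and 5, 0 between puromycin doses and 0 in vehicle by day 3, as within rows A-F (0). The next probe set gave 5 lower with puromycin, 1 in each pair at 24 h, 1 between ARA-C doses, 1 between doxorubicin doses and 0 between puromycin doses. Only the arrays of each comparison gave 4 higher and 3 lower with puromycin, 1 between ARA-C and puromycin at 24 h, 3 between ARA-C doses and 2 between puromycin doses, vehicle of the same rows 5 higher with puromycin, and no intensity trend 0 between puromycin doses. Leaving out each array gave 8 to 11 higher and 5 to 9 lower with ARA-C, 2 to 5 and 13 to 17 with doxorubicin, 4 to 10 and 0 to 2 with puromycin, 0 to 0 in each pair at 24 h, 3 to 5 between ARA-C and doxorubicin, 5 to 6 in both other pairs, 0 to 0 between ARA-C and doxorubicin doses, 0 to 1 between puromycin doses, and 1 to 4 and 4 to 4 in vehicle by days 3 and 5. The sign changed as follows. NQO1 by the next probe set gave -0.24 and -0.87 (ARA-C 0.17 µM, 24 h and day 5) and -0.045 (puromycin day 5), by same-row vehicle -0.014 (ARA-C day 5), and with the array kept -0.64 (puromycin). SLC7A11 with puromycin gave -0.036 with the array kept and -0.12 by the next probe set. After quantile normalization ARA-C at 0.17 µM on day 5 gave 0.24 (GCLM), 0.44 (GCLC), 0.18 (TXNRD1) and 0.38 (SLC7A11), doxorubicin at 119.76 nM on day 5 0.23 (GCLM) and 0.62 (GCLC), and TXN for ARA-C minus puromycin 0.0033. TXN by the next probe set gave 0.11 and -0.046 with doxorubicin (59.88 nM day 3, 119.76 nM 24 h) and by same-row vehicle -0.027 (59.88 nM day 5). The causes were not tested, beyond the fewer arrays or other probes of some alternatives.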
